A study of Mus musculus with 20 samples.

Results

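The mouse hypothalamic line mHypoA-2/12, called A2/12 here, was exposed to serotonin for 24 h and compared with the same line without serotonin. The comparison holds 8 of the 20 arrays of the series, chosen by their titles: 4 of cells given serotonin at the dose titled 100 µg/ml and 4 of control cells. All 20 arrays measured total RNA of cultured cells, and the other 12 were of a second line, mHypoE-46 (E46), with 4 control arrays, 4 at the dose titled 100 and 4 at the dose titled 1 µg/ml. Both lines were bought from the same supplier, are neuronal cell lines of the mouse hypothalamus by their labels, and were grown in serum-containing medium. They were moved to serum-free medium 4 h before serotonin was added. The label of A2/12 calls the line unresponsive to serotonin and that of E46 calls it sensitive, in a study of messenger RNA and release of neuropeptide Y (Npy). Each line is a single immortalised line. The labels do not say if the 4 RNA samples of a group are from separate cultures, so that p-values measure only the spread between them, which may be technical. For E46 the titles and the descriptions assign the 2 serotonin doses the other way round. For A2/12 they agree.

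Serotonin is made from tryptophan and acts on a family of cell surface receptors, nearly all of them coupled to G proteins. It is broken down by monoamine oxidases to an aldehyde, which aldehyde dehydrogenases oxidise further, and it can be methylated by the enzyme Inmt. In the hypothalamus serotonin restrains feeding in part through neurons that make Npy and proopiomelanocortin. Cells short of amino acids or under other stress phosphorylate a translation initiation factor, and the transcription factor Atf4 then raises genes of amino acid uptake, synthesis and tRNA charging, a programme called the integrated stress response.

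Values are log2 levels as deposited, so that a difference of 1 is a factor of 2 and each change below is serotonin minus control on this scale, with its standard error. Levels are given by replicate number, from 1 to 4, and are not comparable between genes, since each probe set has its own brightness. A gene was called changed at an adjusted p below 0.05 (limma, Benjamini-Hochberg over all 18820 genes). A level at or below 4.36, which 95% of odorant and pheromone receptor genes did not exceed in the control group, was treated as background (4.35 in the serotonin group).

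Some arrays stood apart. Control 4 carried genes of macrophages: 83 genes were more than 1 above the mean of the other control arrays, among them the lysozyme gene Lyz2 at 3.88, 4.20, 4.30 and 9.02 in the control arrays. Of 29 macrophage and microglia markers, 23 were above that array's own background in control 4, against 5 to 10 in the other control arrays and 7 to 10 in the serotonin arrays. Their summed linear level was 2790 in control 4, 682 to 773 in the other control arrays and 868 to 982 in the serotonin arrays. The markers Csf1r (4.05, 3.84, 4.15 and 6.5), Spi1 (4.18, 3.63, 4.12 and 6.53) and Tyrobp (4.14, 3.96, 4.22 and 6.97) showed the same picture, whereas the microglial receptor P2ry12 (3.63, 3.17, 3.20 and 3.30) did not. Control 2 had the highest background, 4.85 against 4.25 to 4.31 in the other control arrays and 4.28 to 4.44 in the serotonin arrays, and 170 genes more than 1 above the rest of its group. The scan names place control 1 to 3 in row E, control 4 and serotonin 1 and 2 in row F, and serotonin 3 and 4 in row G, so that row F alone holds both groups. Row and treatment cannot be told apart elsewhere. Among the E46 control arrays, control 3 had 6 of 12 intestinal markers above its background, against 2 in each of the others.

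Npy, the gene the series was built around, was at background in A2/12 cells and did not pass the test. Its levels were 4.33, 4.38, 4.20 and 4.35 in the control arrays and 4.23, 4.34, 4.27 and 4.36 in the serotonin arrays, a change of -0.02 ± 0.12 (SE), adjusted p = 0.936. Both groups overlapped, and the level lay at the height of receptor genes that these cells are not known to use.

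The response to serotonin was broad. Of 18820 genes, 8645 (45.9%) were called changed, 4669 (24.8%) higher and 3976 (21.1%) lower, and 816 (4.34%) rose and 1212 (6.44%) fell at least 2-fold. The groups of 4 did not overlap for 8149 genes (43.3%), and 41.1% of genes were both called and not overlapping. Higher genes made up 54.0% of the calls, and 68.8% when each array was centred on its median, which shifts the median change of all genes by 0.16. The median change was 0.00 and the median standard error 0.10. Without control 4, 8410 genes (44.7%) were called, of which 8194 were called in the same direction with all arrays. With the row as a block, which rests on control 4 and serotonin 1 and 2 of row F, 2847 genes were called higher and 2983 lower. Of the changes of single genes given here, 52 lost their call with this block and 2 turned their sign. Because 45.9% of all genes passed the test, the count of called members in each gene group below is read against these shares.

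The 15 named genes that rose most were led by Car6, a secreted carbonic anhydrase, at 5.05, 5.10, 5.42 and 5.11 in the control arrays and 10.14, 10.33, 10.39 and 10.09 in the serotonin arrays. Its change was 5.07 ± 0.10 (SE), adjusted p = 8.89e-18, a factor of 33.5. Every serotonin array lay above every control array, which the choice of these 15 genes required. Trem3, a receptor of myeloid cells, went from background to a clear signal, with 3.99, 4.39, 4.32 and 4.50 in the control arrays and 7.84, 8.13, 7.59 and 7.99 in the serotonin arrays. Its change was 3.59 ± 0.10 (SE), adjusted p = 2.63e-15. Control 4, with its macrophage genes, was no outlier for Trem3. H2-M1, a non-classical histocompatibility gene, was at 3.28, 3.39, 3.40 and 3.28 in the control arrays and 6.78, 6.75, 6.79 and 7.34 in the serotonin arrays. H2-M1 changed by 3.58 ± 0.15 (SE), adjusted p = 5.80e-14. Dusp9, a phosphatase that inactivates MAP kinases, was at 6.87, 6.10, 6.74 and 6.01 in the control arrays and 9.83, 9.81, 10.03 and 9.94 in the serotonin arrays. The change was 3.48 ± 0.15 (SE), adjusted p = 9.19e-14. H2-M1 was at background on all control arrays and Trem3 at or close to it, and the treated arrays of all 3 genes lay more than 2 above their controls.

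**Figure D1:**
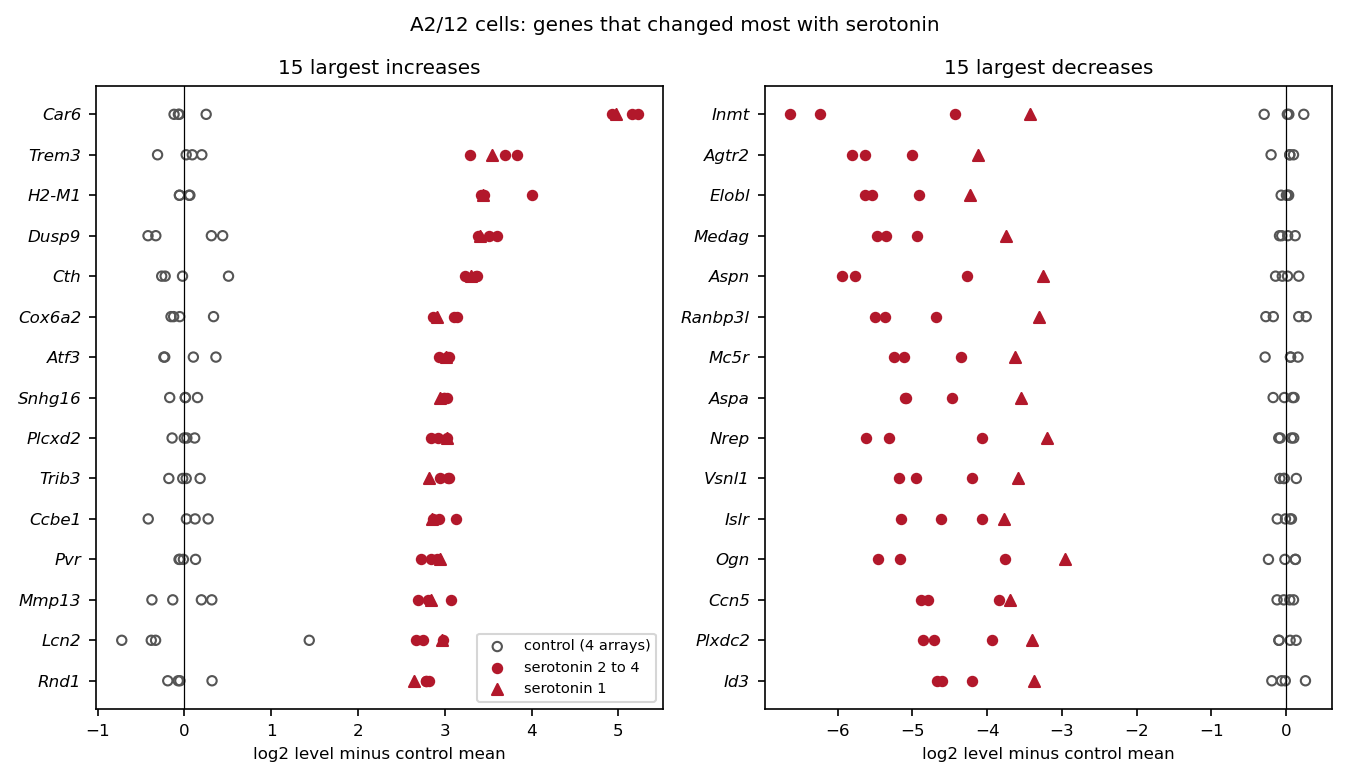
Level of the 15 genes with the largest increases and the 15 with the largest decreases, each array shown as its log2 level minus the control mean of that gene; open circles are the 4 control arrays and filled circles the 4 serotonin arrays, with serotonin 1 marked by a triangle. All 30 genes were chosen among those whose groups do not overlap, and among the 15 decreases serotonin 1 is the highest of its group each time.

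Cth, which makes cysteine from cystathionine, rose by 3.32 ± 0.14 (SE), from 6.69, 6.49, 6.45 and 7.22 to 10.01, 10.07, 9.95 and 10.08. Cox6a2, the heart and muscle form of a cytochrome oxidase subunit, changed by 3.00 ± 0.11, and the stress-induced transcription factor Atf3 by 3.00 ± 0.11. Next came the noncoding host transcript Snhg16 (2.99 ± 0.12), the pseudokinase Trib3 (2.96 ± 0.11), Plcxd2 (2.96 ± 0.13), the lymphangiogenic matrix protein Ccbe1 (2.94 ± 0.13) and the poliovirus receptor homologue Pvr (2.86 ± 0.09). The collagenase Mmp13 was at 7.60, 7.84, 8.29 and 8.17 in the control arrays and 10.81, 10.66, 10.78 and 11.05 in the serotonin arrays (2.85 ± 0.16), and Rnd1, a small GTPase that loosens the actin cytoskeleton, changed by 2.76 ± 0.10. Lcn2, an iron-siderophore-binding protein of innate immunity, was at 6.06, 5.72, 6.11 and 7.88 in the control arrays and 9.41, 9.11, 9.42 and 9.19 in the serotonin arrays. Control 4 was the highest of its group for Lcn2, and the change of 2.84 ± 0.32 became 3.32 without it.

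Each of the 15 largest decreases was larger than every increase but that of Car6. Inmt, which methylates indole amines, was at 11.80, 11.78, 12.00 and 11.47 in the control arrays and 8.33, 7.33, 5.52 and 5.13 in the serotonin arrays. For Inmt the change was -5.19 ± 0.44 (SE), adjusted p = 2.43e-09. Agtr2, the type 2 angiotensin receptor, went from 9.94, 9.99, 9.69 and 9.94 to 5.77, 4.88, 4.25 and 4.08 (-5.14 ± 0.24 (SE), adjusted p = 3.75e-13), and serotonin 3 and 4 were at background. The melanocortin receptor Mc5r was at 10.94, 10.60, 11.04 and 10.94 in the control arrays and 7.25, 6.53, 5.77 and 5.64 in the serotonin arrays. That is a change of -4.58 ± 0.25 (SE), adjusted p = 3.59e-12. In all 3 genes serotonin 1 was the highest and serotonin 4 the lowest treated array, and the control arrays lay close together.

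The other 12 of the largest decreases were Elobl (-5.08 ± 0.23), the adipogenesis gene Medag (-4.88 ± 0.23), the matrix proteoglycan asporin, Aspn (-4.80 ± 0.39), Ranbp3l (-4.71 ± 0.33), the aspartoacylase gene Aspa (-4.55 ± 0.27), the regeneration-associated Nrep (-4.55 ± 0.38), the neuronal calcium sensor Vsnl1 (-4.48 ± 0.22), Islr (-4.40 ± 0.23), osteoglycin, Ogn (-4.33 ± 0.38), the matricellular gene Ccn5 (-4.30 ± 0.23), Plxdc2 (-4.23 ± 0.21) and Id3 (-4.21 ± 0.22). In all 15, serotonin 1 was the highest of the treated arrays, and both row F arrays were above both row G arrays. The pattern was wider: of the 1212 genes at least 2-fold lower, serotonin 1 was highest for 691, serotonin 2 for 106, serotonin 3 for 305 and serotonin 4 for 110. The median change of those 1212 genes against the control mean was -1.47 in serotonin 1, -1.62 in serotonin 2, -1.56 in serotonin 3 and -1.61 in serotonin 4. What separates serotonin 1 from the other treated arrays was not tested.

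Id3 belongs to a family of helix-loop-helix proteins that block neural and mesenchymal differentiation factors and are classical targets of bone morphogenetic proteins. The other family members, looked at after Id3 had been seen, differed. Id2 was at 11.42, 11.67, 11.63 and 11.62 in the control arrays and 8.43, 7.80, 7.24 and 6.85 in the serotonin arrays (-4.0 ± 0.23 (SE), adjusted p = 4.77e-12) and Id1 at 9.29, 9.07, 9.05 and 8.98 in the control arrays and 7.40, 7.25, 7.38 and 7.15 in the serotonin arrays. Id1 thus changed by -1.80 ± 0.09 (SE), adjusted p = 7.08e-13. Id4 was near background at 4.59, 4.44, 4.42 and 3.98 in the control arrays and 4.30, 4.09, 4.57 and 4.31 in the serotonin arrays and did not pass the test (-0.04 ± 0.13 (SE), adjusted p = 0.858).

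Genes of the integrated stress response rose nearly as a block. Of 29 measured members of the Atf4 and amino acid response list, 27 rose and 0 fell, with a median change of 1.16 against 0.00 over all genes, and 20 rose at least 2-fold. Only Slc7a5, a carrier of large neutral amino acids (0.14 ± 0.07; called without control 1, at 0.18), and the mTOR inhibitor Ddit4 (0.27 ± 0.13; called without control 1 or serotonin 2, at 0.35) did not pass. Trib3, which binds Atf4 and the kinase Akt, was at 7.31, 7.15, 6.95 and 7.11 in the control arrays and 9.95, 10.07, 10.18 and 10.17 in the serotonin arrays. Chac1, which degrades glutathione, was at 8.15, 7.90, 7.93 and 7.86 in the control arrays and 10.25, 10.35, 10.48 and 10.34 in the serotonin arrays. Its change was 2.40 ± 0.08 (SE), adjusted p = 7.12e-15. Ppp1r15a, the regulatory subunit that directs dephosphorylation of the initiation factor, was at 8.20, 7.89, 8.09 and 7.87 in the control arrays and 10.53, 10.58, 10.60 and 10.48 in the serotonin arrays. Ppp1r15a changed by 2.54 ± 0.09 (SE), adjusted p = 8.43e-15. In each of the 3 the treated arrays stood close together and far above all controls.

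Atf4 binds a composite DNA element, here searched as TGATGNAA on both strands in the 300 bases from 250 before to 50 after the start site of RefSeq genes (build GRCm38.p6). Of the 24 list members with such a window, 8 (33.3%) held it, against 535 of 14749 measured genes (3.63%). Of 10 aminoacyl-tRNA synthetase genes with a window, 4 (40.0%) held it. The windows of 3 members that rose are shown because they carry the element at different places; the element is in capitals, and TTNCATCA is its reverse complement. It begins 23 bases before the start site in Asns, 193 before in Chac1, and at both 66 and 47 before in Slc7a11. A match describes the letters only and is not evidence of binding.
Asns (chr6:7693160-7693459, minus strand): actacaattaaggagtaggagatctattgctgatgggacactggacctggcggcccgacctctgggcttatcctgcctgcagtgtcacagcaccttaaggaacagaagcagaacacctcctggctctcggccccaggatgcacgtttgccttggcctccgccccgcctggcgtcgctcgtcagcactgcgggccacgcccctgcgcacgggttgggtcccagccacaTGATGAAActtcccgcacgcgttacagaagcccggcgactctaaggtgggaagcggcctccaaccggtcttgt
Chac1 (chr2:119350992-119351291, plus strand): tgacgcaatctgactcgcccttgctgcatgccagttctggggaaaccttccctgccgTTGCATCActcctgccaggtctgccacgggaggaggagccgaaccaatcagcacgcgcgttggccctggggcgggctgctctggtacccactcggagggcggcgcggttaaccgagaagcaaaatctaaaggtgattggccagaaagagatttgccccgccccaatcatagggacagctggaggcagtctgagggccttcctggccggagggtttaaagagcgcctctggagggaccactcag
Slc7a11 (chr3:50443564-50443863, minus strand): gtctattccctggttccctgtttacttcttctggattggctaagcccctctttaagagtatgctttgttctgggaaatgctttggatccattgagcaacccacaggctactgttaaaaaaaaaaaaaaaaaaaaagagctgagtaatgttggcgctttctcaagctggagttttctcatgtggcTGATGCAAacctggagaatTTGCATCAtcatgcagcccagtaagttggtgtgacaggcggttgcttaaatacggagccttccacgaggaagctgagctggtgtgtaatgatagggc

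Of the genes that these windows belong to, Asns and Slc7a11 act in amino acid supply. Asns, asparagine synthetase, was at 10.72, 10.78, 10.73 and 10.91 in the control arrays and 12.42, 12.36, 12.19 and 12.30 in the serotonin arrays (1.53 ± 0.07 (SE), adjusted p = 3.56e-13), and Slc7a11, the cystine importer, was at 8.36, 7.99, 8.5 and 8.38 in the control arrays and 9.45, 9.46, 9.36 and 9.40 in the serotonin arrays. The change was 1.11 ± 0.14 (SE), adjusted p = 1.07e-06. All 8 arrays separated by group for both. Of 14 genes of serine, asparagine, proline and one-carbon synthesis, 13 rose, with a median of 0.87. They included the mitochondrial folate enzymes Mthfd2 (1.75 ± 0.09) and Shmt2 (1.19 ± 0.06) and the alanine aminotransferase Gpt2 (1.69 ± 0.08). The exception was glutamine synthetase, Glul (-0.02 ± 0.07 (SE), adjusted p = 0.859). Of 17 cytosolic aminoacyl-tRNA synthetases, 16 rose, with a median of 1.01: Wars, for tryptophan, changed by 1.42 ± 0.07, Tars by 1.40 ± 0.07, Sars by 1.12 ± 0.06 and Yars by 1.10 ± 0.07, and Hars alone did not pass (0.14 ± 0.07 (SE), adjusted p = 0.125).

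Amino acid carriers were mixed. Of 20, 11 rose and 3 fell. The arginine and lysine carriers Slc7a3 and Slc7a1 changed by 2.29 ± 0.15 and 1.46 ± 0.10, the neutral amino acid carrier Slc1a4 by 1.49 ± 0.10 and the glycine carrier Slc6a9 by 1.35 ± 0.07. The lysosomal Slc36a4 (-1.11 ± 0.09), Slc43a2 (-0.83 ± 0.20) and the taurine carrier Slc6a6 (-0.52 ± 0.07) fell. Among 18 genes of cystine, transsulfuration and glutathione, 10 rose and 6 fell. The enzymes that consume cysteine to make taurine fell, Cdo1 from 9.80, 9.69, 9.74 and 9.69 to 7.30, 6.86, 7.04 and 6.48 (-2.81 ± 0.11) and Csad (-1.65 ± 0.09). Oplah (-0.81 ± 0.15), Ggt7 (-0.76 ± 0.10) and the glutathione peroxidases Gpx1 (-0.42 ± 0.07) and Gpx4 (-0.34 ± 0.09) fell as well.

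Other stress programmes moved less uniformly. Of 27 antioxidant genes of the factor Nrf2, 13 rose and 5 fell, with a median of 0.16 (11 higher and 3 lower with the row as a block). Heme oxygenase, Hmox1, was at 10.79, 10.71, 10.66 and 10.61 in the control arrays and 12.41, 12.48, 12.31 and 12.43 in the serotonin arrays. For Hmox1 the change was 1.71 ± 0.07 (SE), adjusted p = 2.95e-14. The quinone reductase Nqo1 was at 8.14, 8.12, 7.94 and 8.00 in the control arrays and 7.67, 7.38, 7.66 and 7.45 in the serotonin arrays and fell (-0.51 ± 0.09 (SE), adjusted p = 6.15e-05). The antioxidant element TGACNNNGC was in 8 of 22 promoter windows of these genes (36.4%), in 8 of 24 of the Atf4 list (33.3%), in 4 of 16 of the cholesterol list (25.0%) and in 15.4% of all windows. The detoxifying genes Ephx1 (-2.43 ± 0.09), Gstm1 (-2.11 ± 0.11) and Aox1 (-2.19 ± 0.13) fell further, and the malic enzyme Me1 less (-0.27 ± 0.09; call lost without control 3 or 4 or serotonin 2 or 3, at -0.25 to -0.21). The list thus held members of both directions under 1 name. Of 13 genes of the list of cytosolic heat shock genes, 10 rose, with a median of 0.87, and the co-chaperone Bag3 fell (-0.67 ± 0.08). Among those that rose were Hspb8 (1.34 ± 0.09), Hsph1 (1.32 ± 0.10) and Ahsa1 (1.00 ± 0.06). The list also held Hspe1, a chaperonin of mitochondria and not of the cytosol, which rose (1.31 ± 0.09). Of 21 chaperones of the endoplasmic reticulum, 5 rose and 7 fell (7 higher and 2 lower under median centring, 2 higher and 2 lower with the row as a block). Hyou1 (0.89 ± 0.07) and Hspa5, known as BiP (0.56 ± 0.07), rose, and P4hb fell (-0.63 ± 0.06).

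Of 20 targets of the tumour suppressor p53, 15 rose and 2 fell, with a median of 0.74. The polo-like kinase Plk2 was at 9.6, 9.61, 9.69 and 9.73 in the control arrays and 11.53, 11.59, 11.30 and 11.53 in the serotonin arrays (1.83 ± 0.09 (SE), adjusted p = 8.84e-13), and Gadd45a and Sesn2 changed by 1.56 ± 0.08 and 1.65 ± 0.11. Sesn2 and Gadd45a are also induced by Atf4, and Sesn2 stands in both lists. Sesn1 (-1.74 ± 0.08) and Phlda3 (-0.54 ± 0.08) fell. Of 24 genes of hypoxia and glycolysis, 9 rose and 7 fell. Vegfa, the vascular growth factor, was at 8.95, 8.59, 8.87 and 8.61 in the control arrays and 10.34, 10.40, 10.34 and 10.32 in the serotonin arrays (1.59 ± 0.10), hexokinase Hk2 changed by 1.55 ± 0.12, and Slc2a3, a glucose carrier, by 0.86 ± 0.09.

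**Figure D2:**
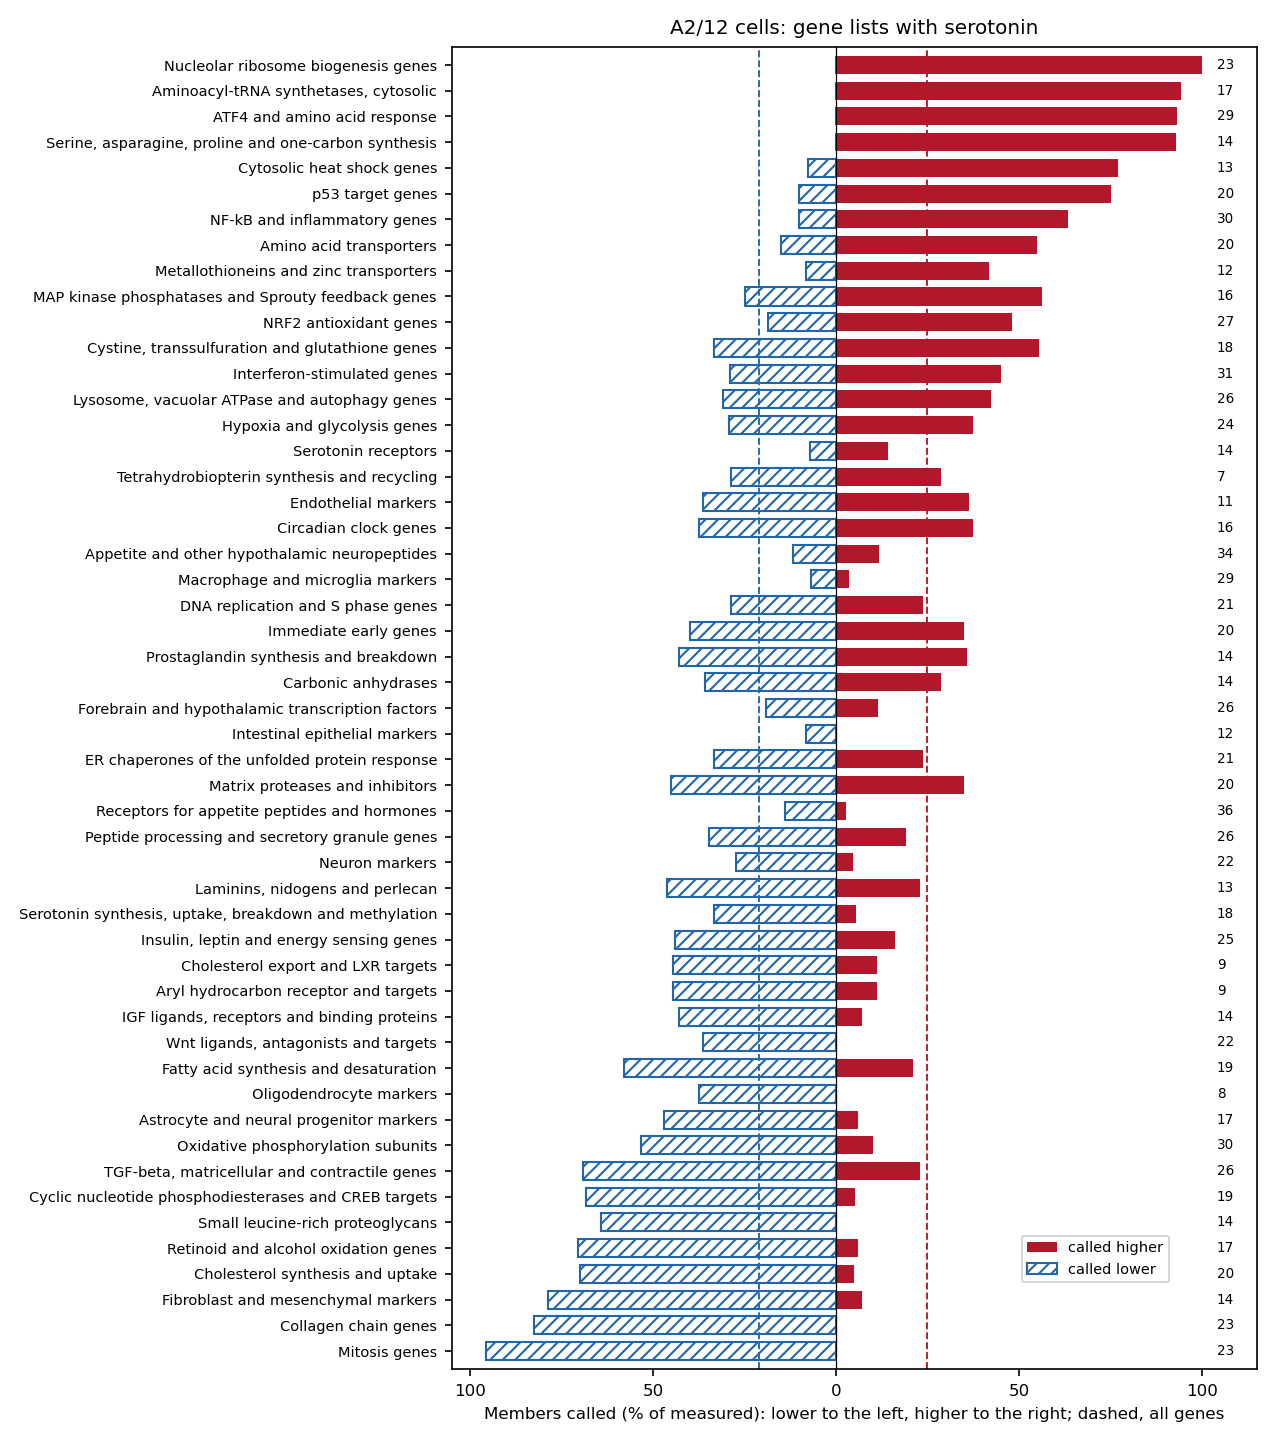
Share of the measured members of each gene list called higher (right, filled) and called lower (left, hatched) in A2/12 cells with serotonin, in percent; dashed lines mark 24.8% higher and 21.1% lower over all 18820 genes, and the numbers at the right give members measured. The nucleolar list reaches 23 of 23 higher and the mitosis list 22 of 23 lower.

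Ribosome making and cell division changed in opposite directions. All 23 nucleolar ribosome biogenesis genes rose, by 0.41 to 2.16, with a median of 1.15. Rrp9, which binds a small nucleolar RNA needed to process ribosomal RNA, was at 8.19, 7.45, 7.92 and 7.65 in the control arrays and 9.89, 9.84, 10.27 and 9.84 in the serotonin arrays. That is a change of 2.16 ± 0.14 (SE), adjusted p = 3.10e-11. Nucleostemin, Gnl3, was at 8.89, 9.08, 9.04 and 9.09 in the control arrays and 10.72, 10.74, 10.46 and 10.68 in the serotonin arrays (1.63 ± 0.09), and the ribosomal RNA methyltransferase Nop2 changed by 1.36 ± 0.07. Myc, a transcription factor that drives ribosome production, was at 9.92, 9.68, 9.77 and 9.71 in the control arrays and 11.86, 11.89, 11.83 and 11.82 in the serotonin arrays. Myc thus changed by 2.08 ± 0.07 (SE), adjusted p = 6.50e-15. Each of these 4 genes separated the groups fully.

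Of 23 mitosis genes, 22 fell, with a median of -1.14. Cyclin B2, Ccnb2, was at 11.46, 11.55, 11.68 and 11.62 in the control arrays and 9.43, 9.31, 9.36 and 9.15 in the serotonin arrays. Its change was -2.27 ± 0.07 (SE), adjusted p = 4.42e-15. Mki67, the proliferation antigen, was at 10.43, 10.60, 10.71 and 10.77 in the control arrays and 8.82, 8.77, 8.41 and 8.57 in the serotonin arrays. Mki67 changed by -1.99 ± 0.10 (SE), adjusted p = 8.34e-13. The centromere histone Cenpa changed by -1.56 ± 0.07 and the kinase Plk1 by -1.62 ± 0.08, while the checkpoint kinase Bub1 did not pass (0.03 ± 0.14 (SE), adjusted p = 0.893). In bulk RNA, fewer dividing cells and less RNA per cell cannot be told apart. Of 21 genes of DNA replication, 5 rose and 6 fell, shares near those of all genes (10 higher and 4 lower under median centring, 1 higher and 5 lower with the row as a block). The thymidine kinase Tk1 (-1.54 ± 0.08), the ribonucleotide reductase subunits Rrm2 (-0.92 ± 0.10) and Rrm1 (-0.59 ± 0.08), cyclin E1, Ccne1 (-0.64 ± 0.07), Pola1 (-0.45 ± 0.13) and Mcm6 (-0.26 ± 0.07) fell. The licensing factor Cdt1 (0.67 ± 0.07), Gins1 (0.34 ± 0.08), Mcm2 (0.24 ± 0.06), E2f1 (0.22 ± 0.07) and Mcm7 (0.16 ± 0.06; call lost without serotonin 1, at 0.14) rose.

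Genes of the extracellular matrix fell in large part. Of 23 collagen chain genes, 19 fell and none rose under the main scaling, quantile normalization or median centring. Their median change was -1.07. Col1a1, a chain of fibrillar collagen, was at 11.71, 11.48, 11.65 and 11.53 in the control arrays and 8.46, 8.06, 8.04 and 7.65 in the serotonin arrays. The change was -3.54 ± 0.18 (SE), adjusted p = 8.19e-13. Col3a1 was at 10.43, 10.41, 10.56 and 10.47 in the control arrays and 7.15, 6.69, 5.89 and 5.74 in the serotonin arrays (-4.10 ± 0.26 (SE), adjusted p = 2.87e-11), and Col1a2 was at 11.88, 11.75, 11.98 and 11.84 in the control arrays and 9.16, 8.85, 8.71 and 8.56 in the serotonin arrays (-3.04 ± 0.13). Col11a1 changed by -2.71 ± 0.11, and Col6a1 and Col6a2 of the beaded filaments by -2.79 ± 0.14 and -2.94 ± 0.13. The 4 chains that did not pass were Col2a1, Col14a1, Col23a1 and Col27a1.

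Of 14 small leucine-rich proteoglycans, which bind collagen fibrils and growth factors, 9 fell and none rose, with a median of -2.41. Asporin was at 9.98, 10.14, 10.07 and 10.29 in the control arrays and 6.87, 5.85, 4.35 and 4.18 in the serotonin arrays, and Ogn at 11.19, 11.55, 11.41 and 11.55 in the control arrays and 8.47, 7.66, 6.26 and 5.96 in the serotonin arrays. Decorin, Dcn, was at 11.77, 11.94, 12.00 and 11.97 in the control arrays and 9.39, 8.68, 8.57 and 8.39 in the serotonin arrays (-3.16 ± 0.17 (SE), adjusted p = 2.60e-12), while Omd (-3.46 ± 0.20), keratocan, Kera (-3.05 ± 0.15), and podocan, Podn (-2.21 ± 0.12), followed it. Serotonin 1 was the highest of the treated arrays for Aspn, Ogn and Dcn. Of 13 laminins and other basement membrane genes, 3 rose and 6 fell (5 higher and 6 lower under median centring). Lama4 (-3.81 ± 0.18), Lama2 (-2.58 ± 0.13), perlecan, Hspg2 (-1.98 ± 0.09), Lamb2 (-1.29 ± 0.09), Lamc1 (-0.78 ± 0.07) and Lama3 (-0.45 ± 0.07) fell, and Lama5 (0.94 ± 0.11), Lamb1 (0.33 ± 0.07) and Nid1 (0.27 ± 0.09; call lost without control 2 or 4 or serotonin 3, at 0.25 to 0.26) rose.

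Of 26 genes of transforming growth factor beta, matricellular proteins and contraction, 18 fell and 6 rose (3 higher and 17 lower with the row as a block). Tgfbi, a secreted protein named for its induction by that factor, was at 10.91, 10.80, 11.07 and 10.93 in the control arrays and 7.50, 6.87, 6.53 and 6.24 in the serotonin arrays. For Tgfbi the change was -4.15 ± 0.19 (SE), adjusted p = 2.04e-13. The ligand Tgfb2 was at 8.76, 8.49, 8.75 and 8.74 in the control arrays and 5.96, 5.84, 5.75 and 5.50 in the serotonin arrays (-2.92 ± 0.09 (SE), adjusted p = 4.54e-15), and Ccn3 changed by -2.33 ± 0.10. Tenascin C, Tnc, went the other way, at 9.33, 9.13, 9.35 and 9.47 in the control arrays and 11.07, 11.09, 11.13 and 11.20 in the serotonin arrays. That is a change of 1.8 ± 0.08 (SE), adjusted p = 3.10e-13. Smooth muscle gamma actin, Actg2 (0.72 ± 0.11), and the inhibitor Smad7 (0.48 ± 0.07) also rose. Among 20 matrix proteases and inhibitors, 7 rose, with Mmp13 and the urokinase receptor Plaur (1.84 ± 0.10) in the lead, and 9 fell, with the aggrecanases Adamts1 (-2.98 ± 0.13) and Adamts5 (-2.72 ± 0.11) and tissue plasminogen activator, Plat (-2.14 ± 0.10), among them.

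Of 14 insulin-like growth factor genes, 6 fell and 1 rose (3 higher and 5 lower under median centring). Igf1 was at 8.19, 8.13, 8.35 and 8.46 in the control arrays and 5.24, 4.83, 4.84 and 4.38 in the serotonin arrays (-3.46 ± 0.23 (SE), adjusted p = 6.26e-11), and its binding proteins Igfbp4 (-3.54 ± 0.13), Igfbp6 (-3.03 ± 0.14) and Igfbp5 (-1.36 ± 0.14), the receptor Igf1r (-0.99 ± 0.09) and the adaptor Irs2 (-0.34 ± 0.07) fell too. The gene that rose was Igf2r (0.20 ± 0.08; call lost without control 1 or 2 or serotonin 1, 2 or 4, at 0.17 to 0.20). Of 22 Wnt genes, 8 fell and none rose, with the antagonists Sfrp4 (-3.04 ± 0.18), Dkk2 (-1.78 ± 0.10) and Dkk3 (-1.44 ± 0.11) and the ligand Wnt6 (-1.41 ± 0.11) changing most clearly, and 2 rose under median centring.

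Markers of neurons were mixed in these cells, which their label calls neuronal. Of 22 neuron markers, 12 were above the background of 4.36 in the mean of the 4 control arrays and 10 were not. Ncam1 (10.42), Map2 (9.62) and Stmn2 (9.14) stood far above it and Syp (4.46) just above it, whereas Snap25 (4.14), Rbfox3 (4.18), Nefl (3.26) and Gad1 (4.34) were below it. Of 14 fibroblast and mesenchymal markers, 12 were above it. With serotonin, 6 neuron markers fell: the microtubule regulator Stmn2 went from 9.22, 9.16, 9.08 and 9.10 to 7.01, 6.87, 7.08 and 6.98 (-2.16 ± 0.10 (SE), adjusted p = 5.79e-13), Map2 changed by -1.92 ± 0.10, the adhesion molecules Ncam1 and L1cam by -1.59 ± 0.08 and -1.14 ± 0.15, Eno2 by -0.66 ± 0.11 and Syt1 by -0.80 ± 0.09. Thy1, also a fibroblast marker, rose (0.37 ± 0.11). The share of neuron markers that fell was little above that of all genes, and the share that rose was below it. Of the 14 mesenchymal markers, 11 fell, with a median of -1.50, among them Pdgfrb at 12.50, 12.44, 12.62 and 12.57 in the control arrays and 10.87, 10.68, 10.66 and 10.73 in the serotonin arrays (-1.80 ± 0.09). Lum (-0.23 ± 0.11; called without control 4, at -0.31) and Pdgfra (0.17 ± 0.16 (SE), adjusted p = 0.458) did not pass.

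Of 17 astrocyte and progenitor markers, 8 fell, led by the Notch target Hes1 (-1.93 ± 0.09) with Slc1a2 (-1.07 ± 0.11), Slc1a3 (-0.92 ± 0.13) and Notch1 (-0.60 ± 0.08), and Sox2 rose (0.22 ± 0.09; call lost without control 2, 3 or 4 or serotonin 2, 3 or 4, at 0.15 to 0.24). Among endothelial markers Cdh5 went from background, 4.31, 4.20, 4.32 and 4.36, to 6.11, 5.79, 5.61 and 5.95 (1.57 ± 0.12), and Emcn went the other way, from 7.90, 7.57, 7.44 and 7.90 to 4.77, 4.29, 4.32 and 4.30 (-3.28 ± 0.13). Esam (0.70 ± 0.15), Pecam1 (0.21 ± 0.08; call lost without control 1, 2 or 3 or serotonin 1, 2 or 4, at 0.20 to 0.22) and Vwf (0.20 ± 0.08; call lost without control 1, 2 or 4 or serotonin 2, 3 or 4, at 0.17 to 0.20) rose, and Tek (-1.07 ± 0.14), Flt1 (-0.81 ± 0.13) and Eng (-0.80 ± 0.12) fell, so no single direction held for that list (1 higher and 4 lower with the row as a block). Cnp (-1.72 ± 0.13), Cspg4 (-0.81 ± 0.11) and Sox10 (-0.67 ± 0.14) of 8 oligodendrocyte markers and Cdh17 (-1.17 ± 0.12) of 12 intestinal markers fell, and none of either list rose, but 1 and 2 did under median centring. Of the macrophage markers, Cybb fell (-1.89 ± 0.39 (SE), adjusted p = 0.000373) from 5.3, 5.05, 5.73 and 7.94 to 4.17, 3.91, 4.28 and 4.11, and without control 4 its change was -1.24. Msr1 fell (-0.92 ± 0.37; call lost without control 2 or 4 or serotonin 1, 2, 3 or 4, at -1.0 to -0.31), and Cd68, also a lysosomal protein, rose (0.79 ± 0.22 (SE), adjusted p = 0.00506, and 1.14 without control 4), but its change was -0.27 with the row as a block. That block, in which control 4 is the only control of the row that holds both groups, gave 0 higher and 20 lower of the 29 macrophage markers and a median of -1.03, against 1, 2 and -0.25 without it.

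Cholesterol genes fell moderately. Of 20 genes of cholesterol synthesis and uptake, 14 fell and 1, Mvd, rose (0.24 ± 0.09; call lost without control 2 or 4 or serotonin 2, 3 or 4, at 0.17 to 0.24). The median change was -0.44. Hmgcs1, the enzyme that opens the mevalonate pathway, was at 9.01, 9.27, 9.20 and 9.37 in the control arrays and 8.46, 8.52, 8.27 and 8.32 in the serotonin arrays. Hmgcs1 thus changed by -0.82 ± 0.10 (SE), adjusted p = 4.42e-07. Nsdhl was at 10.11, 10.36, 10.28 and 10.32 in the control arrays and 9.38, 9.31, 9.19 and 9.21 in the serotonin arrays (-1.0 ± 0.07 (SE), adjusted p = 3.05e-10), Tm7sf2 changed by -1.15 ± 0.11 and mevalonate kinase, Mvk, by -0.74 ± 0.09. The groups did not overlap in any of the 4. The sterol element TCACNCCAC, searched on both strands, was in 1 of the 16 promoter windows of these genes (6.25%), that of Hmgcs1, in 1 of 22 of the Nrf2 list (4.55%) and in 1.42% of all windows. Of 9 carriers and targets of cholesterol export, 1 rose and 4 fell (4 higher and 3 lower under median centring). Apolipoprotein E, Apoe, was at 10.63, 10.68, 10.75 and 10.56 in the control arrays and 8.66, 8.49, 8.72 and 8.64 in the serotonin arrays (-2.03 ± 0.09), the receptor-degrading ligase Mylip and Lpcat3 changed by -1.58 ± 0.15 and -0.44 ± 0.07, Abcg1 fell narrowly (-0.42 ± 0.16; call lost without control 1 or 4 or serotonin 2 or 4, at -0.42 to -0.22, and 0.08 at scan position 7 alone), and the lysosomal cholesterol exporter Npc1 rose (0.78 ± 0.06).

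Of 19 genes of fatty acid synthesis, 11 fell and 4 rose (5 higher and 6 lower under median centring, 3 higher and 6 lower with the row as a block). Acss2, which makes acetyl coenzyme A from acetate, was at 8.27, 8.52, 8.43 and 8.59 in the control arrays and 6.69, 6.49, 6.56 and 6.58 in the serotonin arrays (-1.87 ± 0.10 (SE), adjusted p = 2.85e-12), and the elongase Elovl6 and the desaturase Scd2 changed by -1.33 ± 0.08 and -1.13 ± 0.07. Mid1ip1 (1.12 ± 0.08), Fads3 (0.60 ± 0.07), Acacb (0.53 ± 0.12) and Elovl1 (0.20 ± 0.05) rose. Of 30 subunits of oxidative phosphorylation, 16 fell and 3 rose, by small amounts: the largest were the ATP synthase subunit Atp5a1 (-0.56 ± 0.07) and Uqcrq (0.60 ± 0.10). This split turned to 5 and 5 under median centring, and to 2 lower and 1 higher with the row as a block.

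Of 14 serotonin receptor genes, 6 were above background in control cells and 3 passed the test, a smaller share than among all genes. Htr2a, which couples to phospholipase C, was at 6.52, 6.69, 6.83 and 6.92 in the control arrays and 8.17, 8.16, 7.92 and 8.35 in the serotonin arrays (1.41 ± 0.11 (SE), adjusted p = 5.97e-10), a rise of 2.66-fold with groups that did not overlap. Htr2b, of the same subfamily, was at 3.65, 3.91, 3.66 and 3.99 in the control arrays and 4.13, 4.10, 4.28 and 4.08 in the serotonin arrays (0.35 ± 0.12; call lost without control 1 or 3 or serotonin 3, at 0.30), all of it below the background level. Htr1d was at 4.22, 4.31, 4.68 and 4.57 in the control arrays and 4.18, 4.21, 4.08 and 4.19 in the serotonin arrays (-0.28 ± 0.11; call lost without control 3 or 4 or serotonin 1, 2, 3 or 4, at -0.30 to -0.20). Htr1b stood above background at 5.80, 5.17, 5.47 and 5.28 in the control arrays and 5.29, 5.21, 5.45 and 5.08 in the serotonin arrays and did not pass (-0.17 ± 0.11 (SE), adjusted p = 0.242), nor did Htr6 at 4.86, 4.44, 4.41 and 4.79 in the control arrays and 4.45, 4.36, 4.40 and 4.43 in the serotonin arrays (-0.22 ± 0.10; called without control 2 or 3, at -0.29 to -0.28). The receptor genes Htr1a, Htr1f, Htr2c, Htr3a, Htr3b, Htr4, Htr5a, Htr5b and Htr7 lay between 3.09 and 4.62 in level on all 8 arrays and did not pass.

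**Figure D3:**
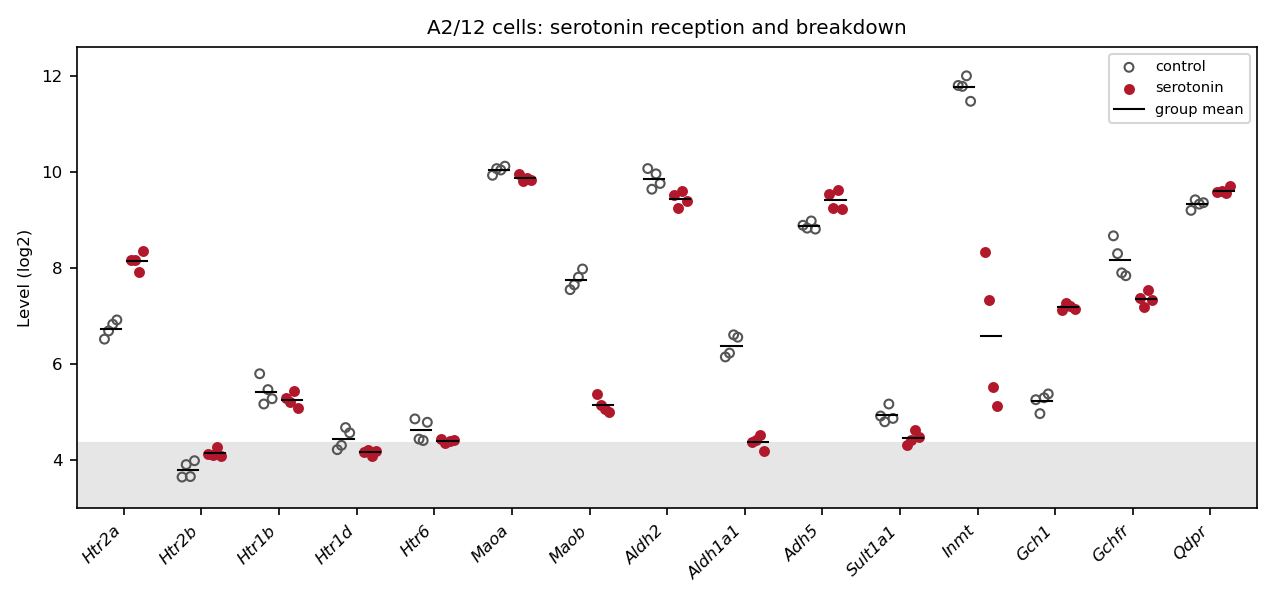
Log2 level on each of the 8 arrays for genes of serotonin reception, breakdown, methylation and the pterin cofactor; open circles are control arrays, filled circles serotonin arrays, bars group means, and the grey band lies below the background of 4.36. Htr2a and Gch1 are higher and Inmt, Maob and Aldh1a1 lower in every serotonin array than in every control array, and the groups of Maoa overlap.

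Several enzymes that remove serotonin or its aldehyde fell. Of 18 genes of serotonin synthesis, uptake, breakdown and methylation, 1 rose and 6 fell (3 higher and 5 lower under median centring, 1 higher and 3 lower with the row as a block). Monoamine oxidase B, Maob, was at 7.55, 7.65, 7.81 and 7.98 in the control arrays and 5.38, 5.15, 5.07 and 5.01 in the serotonin arrays. Its change was -2.60 ± 0.11 (SE), adjusted p = 6.57e-14. Monoamine oxidase A, Maoa, which prefers serotonin as a substrate, was at 9.93, 10.07, 10.04 and 10.12 in the control arrays and 9.95, 9.81, 9.87 and 9.83 in the serotonin arrays; its change passed narrowly (-0.18 ± 0.07; call lost without control 2, 3 or 4 or serotonin 2, 3 or 4, at -0.18 to -0.15) and the groups overlapped. Aldh1a1, an aldehyde dehydrogenase that also makes retinoic acid, was at 6.15, 6.23, 6.61 and 6.56 in the control arrays and 4.37, 4.43, 4.53 and 4.19 in the serotonin arrays. Aldh1a1 changed by -2.01 ± 0.11 (SE), adjusted p = 3.31e-12. Mitochondrial Aldh2 was at 10.07, 9.64, 9.96 and 9.76 in the control arrays and 9.52, 9.24, 9.61 and 9.40 in the serotonin arrays (-0.42 ± 0.09 (SE), adjusted p = 0.000413), and Sult1a1 changed by -0.48 ± 0.12. Adh5, which reduces or oxidises aldehydes, rose from 8.89, 8.83, 8.98 and 8.81 to 9.54, 9.25, 9.62 and 9.22 (0.53 ± 0.09 (SE), adjusted p = 2.69e-05).

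The remaining genes of serotonin handling were at or near background in both groups: those of synthesis (Tph1, Tph2, Ddc), uptake and storage (Slc6a4, Slc18a1, Slc18a2, Slc22a2, Slc29a4), and Aanat, Ido1 and Tdo2 ranged from 3.12 to 4.51 over the 8 arrays, and none passed the test. Of 7 genes of the cofactor tetrahydrobiopterin, used by tryptophan hydroxylase, 2 rose and 2 fell (1 higher and 0 lower with the row as a block). Gch1, which controls its making, was at 5.26, 4.97, 5.3 and 5.38 in the control arrays and 7.12, 7.28, 7.20 and 7.15 in the serotonin arrays. The change was 1.96 ± 0.16 (SE), adjusted p = 2.20e-09. Its feedback protein Gchfr was at 8.67, 8.30, 7.90 and 7.84 in the control arrays and 7.38, 7.19, 7.54 and 7.33 in the serotonin arrays. For Gchfr the change was -0.81 ± 0.14 (SE), adjusted p = 4.69e-05. Qdpr, which recycles the cofactor, was at 9.20, 9.42, 9.33 and 9.36 in the control arrays and 9.58, 9.61, 9.56 and 9.70 in the serotonin arrays (0.28 ± 0.09 (SE), adjusted p = 0.00933), and Pcbd2 changed by -0.36 ± 0.08. Spr (0.22 ± 0.11; called without control 1, at 0.32), Pts (-0.25 ± 0.12; called without control 2, at -0.38) and Pcbd1 (-0.19 ± 0.15 (SE), adjusted p = 0.333) did not pass.

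Of 34 hypothalamic neuropeptide genes, 13 were above background in control cells, 4 rose and 4 fell (1 higher and 4 lower with the row as a block). Both shares were below those of all genes. Penk, the enkephalin precursor, was at 10.97, 10.72, 10.69 and 10.85 in the control arrays and 7.43, 6.91, 6.81 and 6.33 in the serotonin arrays (-3.93 ± 0.28 (SE), adjusted p = 1.34e-10), a fall of 15.3-fold. Cck, cholecystokinin, was at 4.16, 4.00, 4.08 and 3.87 in the control arrays and 5.85, 5.05, 4.93 and 4.89 in the serotonin arrays (1.16 ± 0.15 (SE), adjusted p = 9.48e-07), with serotonin 1 the highest. Nucb2, the nesfatin precursor, was at 8.23, 8.34, 8.62 and 8.44 in the control arrays and 7.89, 7.84, 7.77 and 7.83 in the serotonin arrays. That is a change of -0.58 ± 0.09 (SE), adjusted p = 9.04e-06. Tac1, the substance P precursor (-0.54 ± 0.11), and neurotensin, Nts (-0.28 ± 0.10; call lost without control 1 or serotonin 1 or 4, at -0.27 to -0.21), fell. Bdnf (0.38 ± 0.09), Ucn3 (0.37 ± 0.15; call lost without control 2, 3 or 4 or serotonin 1, 2, 3 or 4, at 0.34 to 0.40) and Vgf (0.34 ± 0.12; call lost without control 2 or serotonin 4, at 0.23 to 0.30) rose by small amounts. Of 36 genes for receptors of hormones and appetite peptides, 5 fell and 1 rose (6 higher and 4 lower under median centring). Here too both shares were below those of all genes. The Npy receptor Npy1r was at 8.73, 8.81, 8.92 and 8.89 in the control arrays and 6.80, 6.54, 6.42 and 6.64 in the serotonin arrays (-2.23 ± 0.10 (SE), adjusted p = 3.28e-13), and the oestrogen receptor Esr1 at 6.10, 5.54, 5.86 and 6.14 in the control arrays and 4.49, 4.29, 4.35 and 4.28 in the serotonin arrays. Esr1 thus changed by -1.56 ± 0.12 (SE), adjusted p = 7.15e-10. Igf1r, Thrb (-0.70 ± 0.11) and the glucocorticoid receptor Nr3c1 (-0.33 ± 0.09) fell and Ramp3 rose (0.31 ± 0.09).

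Of 26 genes of peptide processing and secretory granules, 9 fell and 5 rose (3 higher and 8 lower with the row as a block). The sorting receptor Sort1 was at 7.44, 7.57, 7.73 and 7.50 in the control arrays and 4.97, 5.01, 4.88 and 4.70 in the serotonin arrays (-2.67 ± 0.10 (SE), adjusted p = 1.63e-14), the amidating enzyme Pam changed by -1.68 ± 0.07 and carboxypeptidase E, Cpe, by -0.70 ± 0.07. The calcium sensor of exocytosis Syt7 was at 4.81, 4.48, 5.0 and 4.59 in the control arrays and 6.34, 6.31, 6.52 and 6.83 in the serotonin arrays (1.78 ± 0.13 (SE), adjusted p = 2.34e-10), and Ptprn (1.26 ± 0.14), Stx1a (0.81 ± 0.12) and Unc13a (0.27 ± 0.09; call lost without control 2 or serotonin 4, at 0.23 to 0.25) rose with it. Among 26 forebrain and hypothalamic transcription factors, 3 rose and 5 fell (0 higher and 3 lower with the row as a block), shares below those of all genes. Foxd1 was at 10.18, 9.87, 9.97 and 9.84 in the control arrays and 8.22, 8.28, 8.16 and 8.04 in the serotonin arrays (-1.79 ± 0.09 (SE), adjusted p = 4.19e-13), Dlx1 (-0.84 ± 0.12), Lhx6 (-0.83 ± 0.12), Dlx2 (-0.47 ± 0.13) and Sim2 (-0.36 ± 0.11) fell, and Emx2 (0.46 ± 0.12), Tbx3 (0.44 ± 0.10) and Six3 (0.33 ± 0.12; call lost without control 1 or 3 or serotonin 3 or 4, at 0.20 to 0.31, and -0.10 with the row as a block) rose.

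Inflammatory genes rose in the greater part. Of 30 genes of the NF-kB list, 19 rose and 3 fell, with a median of 0.60; without control 4, which carried some of them, the counts were 20 and 3 (18 higher and 5 lower with quantile normalization, 13 higher and 5 lower with the row as a block). The cytokine Lif was at 6.35, 5.79, 6.25 and 6.17 in the control arrays and 8.64, 8.34, 8.66 and 8.36 in the serotonin arrays. Its change was 2.36 ± 0.11 (SE), adjusted p = 2.48e-13. Ptgs2, the inducible cyclooxygenase, was at 11.00, 10.92, 11.01 and 11.22 in the control arrays and 12.63, 12.63, 12.44 and 12.68 in the serotonin arrays. Ptgs2 changed by 1.56 ± 0.07 (SE), adjusted p = 2.18e-13. The macrophage growth factor Csf1 was at 10.05, 9.79, 10.03 and 9.96 in the control arrays and 11.02, 11.11, 11.12 and 11.08 in the serotonin arrays. The change was 1.12 ± 0.07 (SE), adjusted p = 5.86e-11. For the neutrophil chemokine Cxcl2, at 3.84, 3.81, 3.72 and 6.23 in the control arrays and 7.44, 6.70, 6.79 and 6.99 in the serotonin arrays, control 4 was again the highest control, and the change of 2.58 ± 0.36 became 3.19 without it. Cx3cl1 (-2.0 ± 0.12), Vcam1 (-0.75 ± 0.08) and Icam1 (-0.48 ± 0.12) fell. Of 31 interferon-stimulated genes, 14 rose and 9 fell (8 higher and 6 lower with the row as a block), with Cxcl10 (1.89 ± 0.19), Rsad2 (1.36 ± 0.15) and Xaf1 (1.10 ± 0.12) at one end and Gbp2 (-1.36 ± 0.15) at the other.

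Of 14 prostaglandin genes, 5 rose and 6 fell (3 higher and 5 lower with the row as a block). Besides Ptgs2, the exporter Abcc4 (1.70 ± 0.11), Ptges2 (1.17 ± 0.10), the phospholipase Pla2g4a (0.62 ± 0.11) and Ptges3 (0.41 ± 0.08) rose. The synthases Ptgds (-1.08 ± 0.12), Ptgis (-1.06 ± 0.10) and Ptges (-0.61 ± 0.17), the degrading enzyme Hpgd (-0.62 ± 0.15), the carrier Slco2a1 (-0.55 ± 0.14) and the receptor Ptger3 (-0.49 ± 0.10) fell.

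Feedback genes of MAP kinase signalling were divided. Of 16 phosphatase and Sprouty genes, 9 rose, and Dusp4 was at 7.0, 6.23, 6.70 and 6.83 in the control arrays and 8.92, 9.07, 9.05 and 8.97 in the serotonin arrays (2.31 ± 0.13 (SE), adjusted p = 3.79e-12) and Dusp5 at 7.80, 7.58, 7.61 and 7.39 in the control arrays and 9.19, 9.55, 9.19 and 9.41 in the serotonin arrays. For Dusp5 the change was 1.74 ± 0.10 (SE), adjusted p = 4.90e-12. Dusp14 (-1.99 ± 0.09), Spry1 (-1.88 ± 0.10), Dusp1 (-1.18 ± 0.12) and Spred1 (-0.36 ± 0.07) fell. Among 20 immediate early genes Egr1 was at 10.61, 10.46, 10.47 and 10.41 in the control arrays and 8.94, 8.99, 9.16 and 8.73 in the serotonin arrays (-1.54 ± 0.08 (SE), adjusted p = 1.20e-12), Egr2 changed by -2.08 ± 0.12 and Rgs2, which dampens signalling of Gq proteins, by -2.12 ± 0.14, so that the list held 7 rises, Myc the largest, and 8 falls. Of 19 cyclic nucleotide phosphodiesterase and CREB genes, 13 fell and Crem rose (0.48 ± 0.13). Pde7b, which degrades cyclic AMP, was at 8.17, 8.02, 8.47 and 8.39 in the control arrays and 4.98, 4.61, 3.93 and 4.13 in the serotonin arrays (-3.85 ± 0.17 (SE), adjusted p = 1.55e-13), ending at background, and Pde1c (-1.31 ± 0.08), Pde4d (-1.30 ± 0.08) and Pde3b (-1.28 ± 0.08) fell less.

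Of 25 genes of insulin, leptin and energy sensing, 11 fell and 4 rose (9 higher and 5 lower under median centring, 3 higher and 7 lower with the row as a block). The coactivator Ppargc1a was at 9.39, 9.33, 9.52 and 9.47 in the control arrays and 8.24, 7.68, 8.18 and 7.88 in the serotonin arrays (-1.43 ± 0.10 (SE), adjusted p = 1.19e-10) and Stat3, which carries leptin signals, changed by -1.14 ± 0.08. Prkaa2, a catalytic subunit of AMP kinase, was at 6.22, 6.32, 6.49 and 6.28 in the control arrays and 7.76, 7.84, 7.34 and 7.91 in the serotonin arrays (1.39 ± 0.15 (SE), adjusted p = 6.77e-08), and Jak2 (0.93 ± 0.10), Foxo3 (0.47 ± 0.09) and Sirt1 (0.29 ± 0.09) rose. Of 16 clock genes, 6 rose and 6 fell. Ciart, a repressor of the clock, was at 7.24, 6.95, 7.39 and 6.71 in the control arrays and 9.33, 9.05, 9.15 and 9.28 in the serotonin arrays (2.13 ± 0.11 (SE), adjusted p = 2.02e-12), and Cry1 (1.11 ± 0.08), Clock (0.75 ± 0.11), Nfil3 (0.69 ± 0.16), Cry2 (0.51 ± 0.13) and Nr1d2 (0.41 ± 0.06) rose. Hlf was at 6.69, 6.26, 6.71 and 6.84 in the control arrays and 4.41, 4.64, 4.49 and 4.31 in the serotonin arrays (-2.16 ± 0.10 (SE), adjusted p = 3.75e-13), and Per3 (-2.05 ± 0.10), Per2 (-1.15 ± 0.10), Tef (-1.07 ± 0.07) and Bhlhe41 (-0.55 ± 0.12) fell. All arrays are of 1 time point.

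Most genes of the retinoid and alcohol oxidation list fell. Of its 17 measured genes, 12 fell and Adh5 rose. Alcohol dehydrogenase Adh1 was at 9.86, 9.59, 9.68 and 9.44 in the control arrays and 6.43, 6.02, 5.74 and 5.51 in the serotonin arrays (-3.71 ± 0.16 (SE), adjusted p = 9.98e-14), and Rdh10 changed by -2.02 ± 0.06. The list also held Dhrs3, which reduces retinal and does not oxidise it. Dhrs3 was at 8.93, 8.84, 8.89 and 8.85 in the control arrays and 5.99, 5.84, 5.72 and 5.79 in the serotonin arrays (-3.04 ± 0.09 (SE), adjusted p = 2.37e-15). Of 9 genes of the aryl hydrocarbon receptor list, 4 fell, 1 rose and 4 did not pass. Aldh3a1 was at 8.22, 8.04, 7.99 and 7.85 in the control arrays and 5.32, 4.98, 5.27 and 4.96 in the serotonin arrays (-2.89 ± 0.11 (SE), adjusted p = 2.58e-14), Cyp1b1 changed by -1.63 ± 0.09 and Arnt by -0.37 ± 0.06. Cyp1a1, the classical target, rose narrowly (0.30 ± 0.10; call lost without control 3 or serotonin 1 or 4, at 0.27 to 0.29), and the receptor Ahr did not pass (-0.16 ± 0.09 (SE), adjusted p = 0.154). Of 14 carbonic anhydrases, 4 rose and 5 fell (6 higher and 3 lower under median centring, 4 higher and 3 lower with the row as a block). Car12 (1.03 ± 0.12), Car7 (0.61 ± 0.09) and Car15 (0.57 ± 0.14) rose with Car6, and the mitochondrial Car5b was at 9.85, 9.63, 9.90 and 9.86 in the control arrays and 7.16, 6.67, 6.95 and 6.86 in the serotonin arrays (-2.90 ± 0.13), with Car11 (-0.75 ± 0.12), Car13 (-0.55 ± 0.07), Car3 (-0.29 ± 0.08) and Car8 (-0.22 ± 0.08; call lost without control 1, 3 or 4 or serotonin 1 or 4, at -0.21 to -0.18) also lower. The zinc exporter Slc30a1, a target of the zinc-sensing factor Mtf1, was at 6.16, 6.29, 6.26 and 6.32 in the control arrays and 7.57, 7.85, 7.61 and 7.61 in the serotonin arrays (1.40 ± 0.15 (SE), adjusted p = 5.37e-08), and 4 more zinc carriers rose: Slc39a14 (0.87 ± 0.10), Slc30a4 (0.69 ± 0.07), Slc39a6 (0.65 ± 0.07) and Slc30a5 (0.26 ± 0.10; call lost without control 1 or 3 or serotonin 1, 2 or 4, at 0.19 to 0.28). Slc39a10 fell (-0.44 ± 0.14; call lost without control 3 or serotonin 3, at -0.39 to -0.37). These zinc carriers were all the genes called in a list of 12 metallothioneins and zinc carriers (5 higher and 1 lower). No metallothionein of the list passed the test. Of 26 lysosome and autophagy genes, 11 rose, with alpha-galactosidase, Gla (1.41 ± 0.09), and the proton pump subunits Atp6v1c1 (1.03 ± 0.08) and Atp6v1b2 (0.78 ± 0.07), and 8 fell, with Atp6v0a1 (-0.86 ± 0.06; 12 higher and 5 lower under median centring, 9 higher and 5 lower with the row as a block).

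Probe sets on microRNA genes read RNA of the hairpin locus, not the mature microRNA, whose level was not measured here, and the genes below were picked after their values were seen. Of 303 such genes tested, 60 (19.8%) were called higher and 23 (7.59%) lower, smaller shares than the 24.8% and 21.1% of all genes. At least 2-fold, 22 of the 303 were higher and 5 lower, beside 4.34% higher and 6.44% lower of all genes. At this threshold the share of rises was above that of all genes and the share of falls below it. The median change was 0.03. Under median centring 101 were higher and 15 lower, and with the row as a block 32 and 13. The mature sequences, from RefSeq (GRCm38.p6), are shown to group the genes by seed, bases 2 to 8 in capitals, which pairs with targets. The first 7 are those of miR-17, miR-20a, miR-18a, miR-19a and miR-19b, from the cluster on chromosome 14 that is transcribed as Mir17hg, and of miR-106b and miR-93 on chromosome 5, which share the seed of miR-17. Together they carry 3 seeds. Genes on chromosome X with 2 of these seeds did not rise likewise. There Mir106a changed by 0.06, Mir19b-2 by 0.19 and Mir20b by -0.27 ± 0.07 (SE), adjusted p = 0.00428.
miR-17-5p: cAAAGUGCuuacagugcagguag
miR-20a-5p: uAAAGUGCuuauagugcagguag
miR-106b-5p: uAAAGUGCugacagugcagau
miR-93-5p: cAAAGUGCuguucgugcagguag
miR-18a-5p: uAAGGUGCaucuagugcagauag
miR-19a-3p: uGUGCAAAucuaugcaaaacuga
miR-19b-3p: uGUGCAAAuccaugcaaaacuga
The other pairs that share a seed sit next to each other in the genome (miR-221 and miR-222, miR-29a and miR-29b) or have the same mature sequence below (miR-199a and miR-199b).
miR-221-3p (chrX:19146307-19146329, minus strand): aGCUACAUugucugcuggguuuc
miR-222-3p (chrX:19146901-19146923, minus strand): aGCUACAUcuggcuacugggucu
miR-29a-3p (chr6:31062673-31062694, minus strand): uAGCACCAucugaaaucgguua
miR-29b-3p (chr6:31063025-31063047, minus strand): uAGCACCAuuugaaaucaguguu
miR-199a-3p: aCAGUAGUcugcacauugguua
miR-199b-3p: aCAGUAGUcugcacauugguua

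In the Mir17hg cluster, known for promoting proliferation, Mir19b-1 was at 3.30, 3.32, 3.64 and 3.38 in the control arrays and 6.76, 6.59, 6.35 and 6.63 in the serotonin arrays. That is a change of 3.17 ± 0.18 (SE), adjusted p = 3.71e-12. Mir18 changed by 2.95 ± 0.19, Mir19a by 2.67 ± 0.20, Mir20a by 2.51 ± 0.22, Mir17 by 1.77 ± 0.15 and the host transcript Mir17hg by 2.11 ± 0.20. The groups were apart for all of them, and most control levels were below background. Mir106b and Mir93, which share the seed of Mir17 and lie within an intron of Mcm7, changed by 1.41 ± 0.16 and 1.39 ± 0.14, whereas Mcm7 itself changed by 0.16 ± 0.06. Mir221 was at 5.92, 6.19, 6.40 and 6.18 in the control arrays and 8.67, 8.62, 8.16 and 8.44 in the serotonin arrays (2.30 ± 0.14 (SE), adjusted p = 9.68e-12), and its neighbour Mir222 at 5.49, 5.15, 5.93 and 6.23 in the control arrays and 8.52, 8.58, 8.21 and 8.44 in the serotonin arrays. Mir222 thus changed by 2.74 ± 0.25 (SE), adjusted p = 1.04e-08. Mir29a was at 3.82, 3.02, 3.68 and 3.73 in the control arrays and 6.70, 6.37, 5.73 and 6.65 in the serotonin arrays (2.80 ± 0.21 (SE), adjusted p = 3.28e-10), and Mir29b-1 changed by 2.30 ± 0.11. The family of miR-29 is known to target collagen messages. Mir31 was at 6.11, 6.28, 6.39 and 6.52 in the control arrays and 9.02, 9.07, 8.67 and 8.85 in the serotonin arrays (2.58 ± 0.18 (SE), adjusted p = 1.08e-10), and Mir125b-1 was at 4.35, 4.02, 5.62 and 5.49 in the control arrays and 7.63, 7.46, 7.11 and 7.54 in the serotonin arrays. Its change was 2.57 ± 0.26 (SE), adjusted p = 3.48e-08. Of those that fell, Mir199b was at 6.02, 5.41, 5.81 and 5.50 in the control arrays and 3.93, 3.80, 3.77 and 3.89 in the serotonin arrays (-1.84 ± 0.11 (SE), adjusted p = 6.22e-12), ending below background, and Mir199a-1, Mir181b-1, Mir181b-2 and Mir568 changed by -1.40 ± 0.12, -1.30 ± 0.18, -2.14 ± 0.25 and -2.56 ± 0.16.

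**Figure D4:**
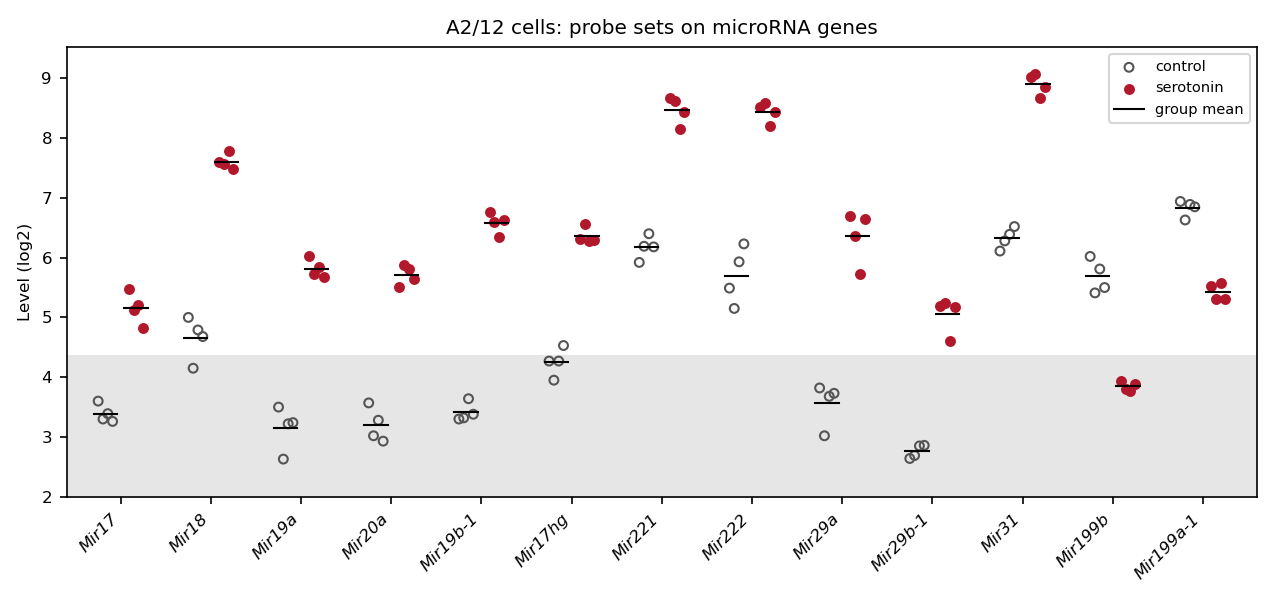
Log2 level on each of the 8 arrays of the probe sets on 12 microRNA genes and the host Mir17hg; open circles are control arrays, filled circles serotonin arrays, bars group means, and the grey band lies below the background of 4.36. Every serotonin array is above every control array except for Mir199b and Mir199a-1, where every one is below.

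The response was set against that of E46, which has its own control arrays, by testing the difference of the 2 changes in the same fit. This difference passed the test for 4142 of 18820 genes (22%), 2053 (10.9%) with the change in A2/12 more positive and 2089 (11.1%) with it more negative. It rests on the E46 doses of the titles. With those of the descriptions, 7435 genes passed; 1299 were more positive and 1531 more negative in A2/12 under both readings, and 251 turned their direction. For each difference below the value under the other reading follows it. Changes and calls in E46 alone are given below with the doses of the titles only.

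**Figure D5:**
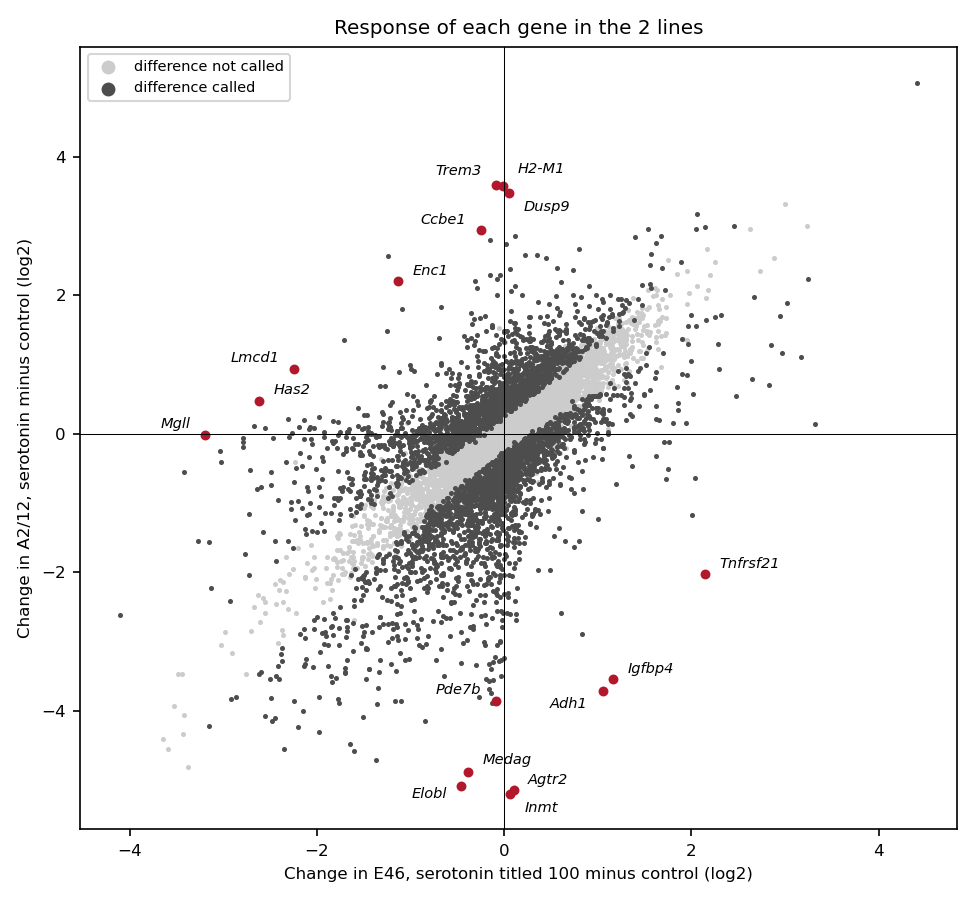
Change with serotonin titled 100 in A2/12 (y axis) against that in E46 (x axis), log2, for 18820 genes; dark points are the 4142 genes whose difference passed the test, and the 16 genes with the largest differences are named. Trem3, H2-M1, Dusp9, Inmt and Agtr2 lie near 0 on the E46 axis, and Mgll lies near 0 on the A2/12 axis.

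The 8 largest positive differences were in Trem3 (3.68 ± 0.15, adjusted p = 8.96e-13; 3.48 under the other reading), H2-M1 (3.58 ± 0.21; 3.47), Dusp9 (3.42 ± 0.21; 3.55), the actin-binding protein Enc1 (3.33 ± 0.12; 2.31), Ccbe1 (3.19 ± 0.19; 3.08), the monoglyceride lipase Mgll (3.19 ± 0.22; 0.05), Lmcd1 (3.18 ± 0.16; 1.40) and the hyaluronan synthase Has2 (3.10 ± 0.31; 0.33). Enc1 rose in A2/12 from 7.53, 7.20, 7.37 and 7.24 to 9.50, 9.72, 9.36 and 9.58 and its change in E46 was -1.13. Mgll and Has2 did not pass the test in A2/12, and their changes in E46 were -3.20 and -2.62. Hence a positive difference covers both a rise in A2/12 and a decrease in E46 alone. Of the 15 largest increases in A2/12, 12 had a difference past the threshold and 10 were called higher in E46 as well. For the 15 largest decreases the counts, with E46 called lower, were 11 and 11. These genes were chosen for a large change in A2/12, which is part of the difference, so the choice favours its passing. Over all genes the difference passed for 10.9% in the positive and 11.1% in the negative direction. The share of all genes called in E46 is not given here.

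The 8 largest negative differences were in Inmt (-5.25 ± 0.62, adjusted p = 1.72e-06; -5.17 under the other reading), Agtr2 (-5.25 ± 0.34; -5.51), Adh1 (-4.77 ± 0.22; -3.67), Igfbp4 (-4.70 ± 0.18; -3.48), Elobl (-4.62 ± 0.33; -5.04), Medag (-4.49 ± 0.33; -4.79), the death receptor Tnfrsf21 (-4.16 ± 0.14; -2.10) and Pde7b (-3.76 ± 0.24; -3.82). Igfbp4 was at 10.67, 10.41, 10.37 and 10.18 in the control arrays and 7.26, 7.0, 6.72 and 6.5 in the serotonin arrays in A2/12, and its change in E46 was 1.16. Tnfrsf21 went from 9.59, 9.45, 9.75 and 9.56 to 7.74, 7.54, 7.65 and 7.33 in A2/12, against a change of 2.14 in E46. With the doses of the titles, these 2 genes and Adh1 moved in opposite directions in the lines. Under the other reading the differences of Igfbp4, Tnfrsf21 and Adh1 (-3.48, -2.10 and -3.67) were close to their changes in A2/12 alone. No clear opposite movement then remained.

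Other members differed as well. For Htr2a the difference was 1.84 ± 0.15 (adjusted p = 1.61e-08; 1.59), for Maob -2.72 ± 0.15 (-2.92), for Maoa -0.79 ± 0.10 (-0.28), for Tnc 2.89 ± 0.12 (1.90), for Tgfbi -3.29 ± 0.26 (-3.93) and for Aldh3a1 -3.72 ± 0.16 (-2.61). Nqo1 had a difference of -2.26 ± 0.13 (-0.58), and of the 27 Nrf2 genes 16 were more negative and 1 more positive in A2/12 (5 and 13 under the other reading). Of the 23 mitosis genes 18 were more negative (22 under the other reading), with Ccnb2 at -1.89 ± 0.10 (-2.32). Of the 13 heat shock genes 7 were more positive (10 under the other reading). The microRNA genes Mir221 (2.44 ± 0.19; 2.27), Mir222 (2.72 ± 0.36; 3.07), Mir29a (2.95 ± 0.29; 3.01), Mir31 (2.23 ± 0.25; 2.74) and Mir125b-1 (3.81 ± 0.37; 2.63) were more positive in A2/12. Penk (-0.40 ± 0.39, adjusted p = 0.548) and Igf1 (0.02 ± 0.33, adjusted p = 0.975) gave no difference past the threshold with the titles' doses, and -3.68 and -3.52 with those of the descriptions.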

How the data were processed

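RNA of cultured cells was labelled and hybridised to Affymetrix mouse gene arrays, 1 array per sample. The deposited values are log2 levels per probe set that the authors made with RMA, per the submitters' processing notes; its version and annotation are not given in the sources used here. The method sets arrays to a common distribution, so a shift shared by most genes would not show. The log2 scale was read from the values, which are not centred: the 8 medians over probe sets were 5.48 to 5.60. Of 35556 probe sets, 21218 carried 1 gene symbol, 1881 several and 12457 none, and only the first were used, the probe set of highest mean standing for a gene (18820 genes). Depth on an array has no count, and the number of arrays limits precision.

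Group means of all 20 arrays in 5 groups were fitted with limma 3.58.1 (R 4.3.3; lmFit, eBayes), leaving 15 residual degrees of freedom, and tested on simulated data. Ranges and counts are over genes. Figures were drawn with matplotlib 3.10.9. Promoter and microRNA sequences come from RefSeq tables of GRCm38.p6, matched by symbol.

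The members and the 51 gene lists were chosen with earlier results of these data known. Named were Npy, the 15 largest increases and decreases with groups that do not overlap, the 8 largest differences in each direction, up to 4 members of each list with the smallest adjusted p, all serotonin-related genes, and macrophage markers. The largest changes were taken without predicted genes, receptors of smell, small RNAs and pseudogenes. Other list members, the Id genes and the microRNA genes were named after their values were seen. Alternatives covered scaling, choice of probe set, dim genes, priors, array weights, scan positions, replicate blocks and left-out arrays. Those without an E46 array, and without A2/12 control 4 together with E46 control 3, which carried genes of another cell type, were added after seeing the data.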

Additional observations from a re-analysis of the deposited data

Results flagged for a closer look

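Among the levels given above, 11 had 1 array far from the other 3 of its group (Dixon's test at 95%), which chance gives in about 1 of 20 groups. Levels of many genes are given above, so chance alone can give a number of this size. Control 4 stood above its group for the macrophage genes Lyz2 (9.02), Tyrobp (6.97) and Csf1r (6.5) and for the chemokine Cxcl2 (6.23). The test also picked Car6 in control 3 (5.42), Mir29a (3.02) and Tgfb2 (8.49) in control 2, H2-M1 in serotonin 4 (7.34), Emcn in serotonin 1 (4.77), Rrp9 in serotonin 3 (10.27) and Slc30a1 in serotonin 2 (7.85). None of these 7 genes changed its call when that array was left out.

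The difference between the lines passed its test for 29 of the 31 genes whose difference is given above. The 8 largest in each direction were chosen among genes that passed, so their passing was fixed by that choice. Over all genes 22% passed, so the count of 29 is no measure of how far the lines differ. Other genes given above differed too and are not listed. The difference (A2/12 minus E46) was positive for Trem3 (3.68), H2-M1 (3.58), Dusp9 (3.42), Enc1 (3.33), Ccbe1 (3.19), Mgll (3.19), Lmcd1 (3.18), Has2 (3.10), Tnc (2.89), Htr2a (1.84), Mir125b-1 (3.81), Mir29a (2.95), Mir222 (2.72), Mir221 (2.44) and Mir31 (2.23). It was negative for Inmt (-5.25), Agtr2 (-5.25), Adh1 (-4.77), Igfbp4 (-4.70), Elobl (-4.62), Medag (-4.49), Tnfrsf21 (-4.16), Pde7b (-3.76), Aldh3a1 (-3.72), Tgfbi (-3.29), Maob (-2.72), Nqo1 (-2.26), Ccnb2 (-1.89) and Maoa (-0.79). With the E46 doses of the descriptions, Mgll and Has2 did not pass.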

How the results depend on the processing

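Counts of genes called in A2/12 moved by over 1.5 times when a change of at least 1.5-fold was tested (2606; 1145 higher, 1461 lower), with only scan position 5 (4161; 1938, 2223) or 9 (1864; 596, 1268), which hold fewer arrays, and, for higher genes, with the row as a block (2847). The difference between lines gave 7435 (4263, 3172) with the E46 doses of the descriptions, 790 (296, 494) against 1.5-fold, 886 (297, 589), 1593 (913, 680) and 73 (23, 50) at positions 5, 7 and 9 alone, and 1505 (662, 843) with the row block. Leaving out 1 array gave 8190 to 8439 calls in A2/12 (4263 to 4613 higher, 3731 to 4098 lower) and 3751 to 4257 differences (1758 to 2340 higher, 1893 to 2241 lower). Single genes turned their sign for Cd68 (-0.27) and Six3 (-0.10) with the row block, for Abcg1 (0.08) at position 7, and for the difference of Igf1 (-3.52) with the other doses; apart from the doses, the cause was not tested. Every other alternative left these counts within 1.5 times. Deviations of same-numbered arrays from their group means had correlations of -0.12, 0.33, -0.05 and 0.07. Without those of differently numbered arrays beside them, these values do not decide if the numbers pair arrays. A replicate block gave 8658 calls (4676 higher, 3982 lower) and 4121 differences. Median centring gave 6517 higher and 2950 lower. Probe sets near background limit what can be said of serotonin receptors and most neuropeptides.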

Other observations

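Among genes that rose, the treated arrays had similar median changes, which do not measure the spread between arrays within a gene. For the 816 genes at least 2-fold higher, the median change against the control mean was 1.31 in serotonin 1, 1.27 in serotonin 2, 1.24 in serotonin 3 and 1.29 in serotonin 4, and these arrays were the highest of the group for 262, 197, 170 and 187 genes. Of the 83 genes that control 4 held at more than 1 above the other controls, 7 were called lower and 6 higher with all arrays, and 6 lower and 17 higher without it.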
